A study of Mus musculus with 16 samples.

Results

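The genes described here are 38 genes known to be switched on by type I interferons, followed in the epidermis of the mouse footpad under 2 diets and with or without an injection of papain. They were found as the rows of the count table whose Ensembl identifier belongs to the member symbols in the GENCODE annotation, and all 38 were present among the 50600 identifiers. Each had at least 10 counts in total and was tested, as were 22155 genes in all. They were sorted by what their products do into 9 groups: transcription factors, RNA sensors, PARP9-DTX3L complex and PARP14, OAS family, IFIT family, MX GTPases, ISG15 conjugation and removal, other antiviral effectors and other induced genes.

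Type I interferons, IFN-β and the IFN-α family, bind the receptor made of IFNAR1 and IFNAR2, which works through the kinases JAK1 and TYK2. These phosphorylate STAT proteins, which together with IRF9 form the ISGF3 complex and bind the interferon-stimulated response element (ISRE) near the start of the target genes. The targets include sensors of foreign RNA, enzymes that degrade or block it, and parts of the pathway itself, and keratinocytes and leukocytes of the skin can both respond.

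All mice were C57/B6J females that from 5 wk of age ate a purified AIN-93M diet for 3 wk. Without any supplement this diet is poor in ligands of the aryl hydrocarbon receptor (AhR-poor diet, labelled SYNTH), and with 200 ppm of indole-3-carbinol, a precursor of such ligands, it is the I3C diet. The footpad received 50 μl of PBS as vehicle, or the same volume with 50 μg of papain, a plant protease used as an allergen. At 6 hr the epidermis was separated with dispase, dead cells were removed, and 1 library of poly(A) RNA was made per mouse, 4 for each diet and injection. Mice on the same diet shared a cage, so diet and cage cannot be told apart. The cells were not sorted, and in such bulk samples fewer cells of a type and less RNA per cell cannot be told apart. Libraries are named by their codes, and values are given in the order T108, T109, T110 and T111 for I3C with vehicle, T100, T101, T102 and T103 for AhR-poor with vehicle, T106, T113, T114 and T115 for I3C with papain, and T104, T105, T107 and T112 for AhR-poor with papain. Levels are in CPM, the counts of a gene per 1000000 counts of the library, scaled with TMM factors. A gene was called when the Benjamini-Hochberg adjusted p of the edgeR quasi-likelihood test was below 0.01 and the log2 fold change was above 1 or below -1.

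The promoters of the members were read first for the ISRE, the sequence that ISGF3 binds. The RefSeq promoter table for GRCm38.p6, which gives 250 bases before and 50 bases after a gene's start, held a window for 29 of the 38 members (35 windows). The motif GAAANNGAAA, searched on both strands, was found in the windows of 14 of these 29 members (48.3%), against 3.44% of all 32851 windows of the table and 3.99% of its 27025 genes. The motif TTCNNNGAA, whose fixed letters read the same on both strands and which is known as the GAS element, was found in 6 members (20.7%), against 8.3% of all windows and 9.55% of the genes. A match is a description of these letters and not a measured binding site. The 6 members below are shown because they cover the IFIT, OAS, ISG15 and viperin genes that were called between the diets after papain and hold a match. Of the same families Ifit2, Oasl1 and Herc6, called there too, had a window without a match. Each line holds the 200 bases before the RefSeq start, on the strand of the gene, with every match of the first motif in capitals.
Isg15: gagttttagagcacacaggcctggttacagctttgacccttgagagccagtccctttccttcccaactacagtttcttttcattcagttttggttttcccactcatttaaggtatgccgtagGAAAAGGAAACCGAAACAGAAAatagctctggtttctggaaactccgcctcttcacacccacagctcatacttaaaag
Ifit1: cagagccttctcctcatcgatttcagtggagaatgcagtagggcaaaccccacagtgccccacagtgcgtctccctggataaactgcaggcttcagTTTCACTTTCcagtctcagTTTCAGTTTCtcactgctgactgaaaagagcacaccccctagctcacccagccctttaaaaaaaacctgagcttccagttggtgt
Ifit3: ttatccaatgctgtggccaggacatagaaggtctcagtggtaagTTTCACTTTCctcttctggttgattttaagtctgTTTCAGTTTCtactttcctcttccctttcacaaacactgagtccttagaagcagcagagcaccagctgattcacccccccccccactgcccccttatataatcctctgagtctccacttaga
Ifit3b: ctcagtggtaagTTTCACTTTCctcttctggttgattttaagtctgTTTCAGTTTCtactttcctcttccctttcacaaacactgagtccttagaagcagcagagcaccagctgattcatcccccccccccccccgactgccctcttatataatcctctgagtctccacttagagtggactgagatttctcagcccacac
Rsad2: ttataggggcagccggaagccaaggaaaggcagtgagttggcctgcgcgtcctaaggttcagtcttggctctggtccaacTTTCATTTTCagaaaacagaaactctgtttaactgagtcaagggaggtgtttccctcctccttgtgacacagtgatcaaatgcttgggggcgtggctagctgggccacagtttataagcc
Oas3: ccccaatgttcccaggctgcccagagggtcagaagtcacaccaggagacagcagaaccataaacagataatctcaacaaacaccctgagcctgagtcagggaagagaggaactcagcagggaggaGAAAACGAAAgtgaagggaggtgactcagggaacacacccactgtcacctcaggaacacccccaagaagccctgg
These stretches lie at chr4:156200819-156201018 (minus strand), chr19:34640689-34640888 (plus strand), chr19:34583329-34583528 (plus strand), chr19:34607757-34607956 (plus strand), chr12:26456453-26456652 (minus strand) and chr5:120777660-120777859 (minus strand). In Isg15 3 matches overlapped, beginning 78, 72 and 66 bases before the start. Ifit3 and Ifit3b each held 2 matches that began 34 bases apart, at 156 and 122 bases before the start in Ifit3 and at 188 and 154 in Ifit3b. Rsad2 held a single match 120 bases before the start, and Oas3 a single match at 75 bases.

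**Figure D1:**
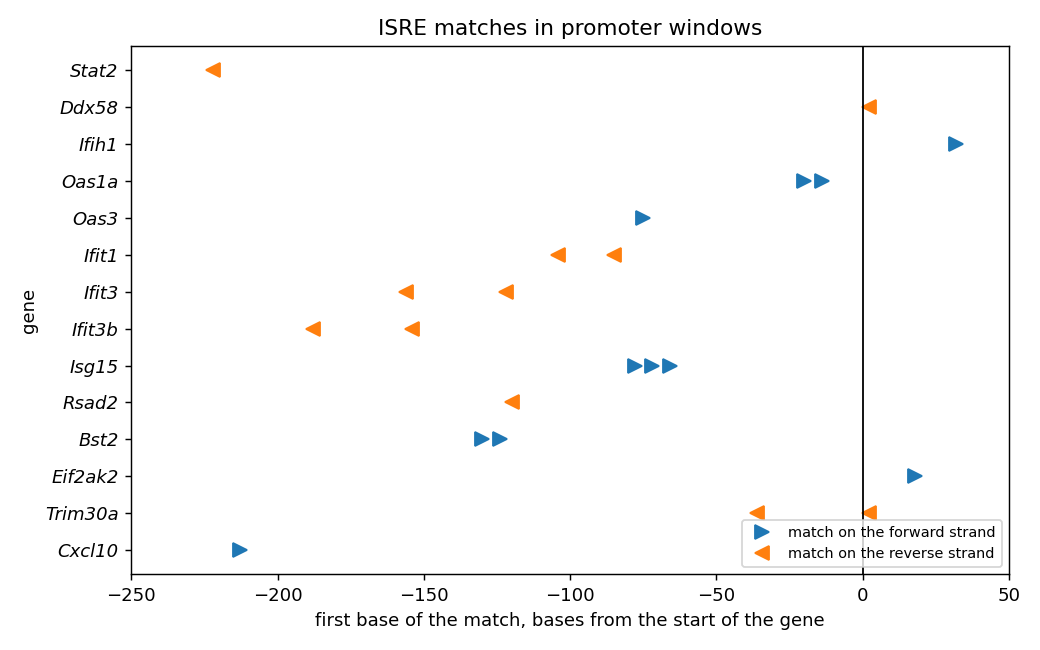
Position of each GAAANNGAAA match in the RefSeq promoter windows of the 14 members that have one, in bases from the start of the gene (0), with the direction of the triangle giving the strand of the match. The matches spread over the window from 222 bases before the start (Stat2) to 32 bases after it (Ifih1), and Isg15 holds 3 that overlap.

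Library totals ran from 22500821 to 51844375 counts, so that 3 counts, taken as the floor of detection, equalled 0.0569 to 0.130 CPM (counting error only). No pair of libraries of a group was a duplicate, since the lowest chi-square per degree of freedom between them was 9.43. The label of the tissue was checked against 8 keratinocyte markers, which summed to 40582 to 65743 CPM over the 16 libraries, with Krt14 at 8324 to 14090 CPM. Cells that are not epidermal were also seen, and differed between groups. The 10 dermal fibroblast markers summed to 2.40 to 13.7 CPM on the I3C diet and to 104.3 to 712 CPM on the AhR-poor diet. The 10 neutrophil markers summed to 1.64 to 4.83 CPM (I3C, vehicle), 10.1 to 12.6 CPM (AhR-poor, vehicle), 51.2 to 93.2 CPM (I3C, papain) and 112.7 to 782 CPM (AhR-poor, papain). In the I3C papain libraries that sum was mostly S100a8, S100a9, Cxcr2 and Mmp9, with Csf3r at 0.03 to 2.29 CPM and Ly6g at 0. The part of these cells in the results below was not tested.

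Interferon-stimulated genes of every role were called higher after papain on the AhR-poor diet, and of every role but the IFIT family on the I3C diet. On the AhR-poor diet 34 of the 38 members were called higher and 0 lower, with a median log2 fold change of 3.14. Over all genes 6.04% were called higher, and the median was -0.00. On the I3C diet 22 members were called higher and 0 lower, with a median of 1.89, or 1.74 when the 6 members at the floor in a group are taken at their bound. Over all genes 3.69% were called higher there, with a median of -0.04. The members called on both diets numbered 21, against 2.36% of all genes. The 13 called on the AhR-poor diet alone were Irf7, Ddx58, Oasl1, Ifit1, Ifit2, Ifit3, Ifit3b, Herc6, Rsad2, Isg20, Samd9l, Trim30a and Sp100, and Irf9 was called on the I3C diet alone. Cmpk2, Eif2ak2 and Cxcl10 were called on neither. Calls on 1 diet alone do not show that the responses differ, since the interaction of diet and papain passed for 0 members in edgeR. On the I3C diet Ddx58, Oasl1, Ifit1, Ifit3, Rsad2, Samd9l, Trim30a and Sp100 also had all 4 papain libraries above all 4 vehicle libraries. The groups overlapped there for Irf7, Ifit2, Ifit3b, Herc6 and Isg20. In the comparisons of papain with vehicle 10 of 10 neutrophil and 10 of 10 fibroblast markers were called higher on the AhR-poor diet. On the I3C diet 4 and 0 of them were called higher, and 1 fibroblast marker was called lower. Of 10 monocyte and macrophage markers 7 were called higher on the AhR-poor diet and 2 on the I3C diet. Their median sum was 59.6 CPM with vehicle and 162.7 CPM with papain on the AhR-poor diet. On the I3C diet it did not rise, at 23.2 CPM with vehicle and 21.3 CPM with papain.

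The groups can also be compared by their single libraries. In 37 of the 38 members all 4 papain libraries lay above all 4 vehicle libraries on the AhR-poor diet, as in 17% of all genes. On the I3C diet this held for 31 members and for 16.2% of all genes. Groups of 4 without overlap give p = 0.0286 in an exact permutation test (two-sided), the smallest value possible.

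**Figure D2:**
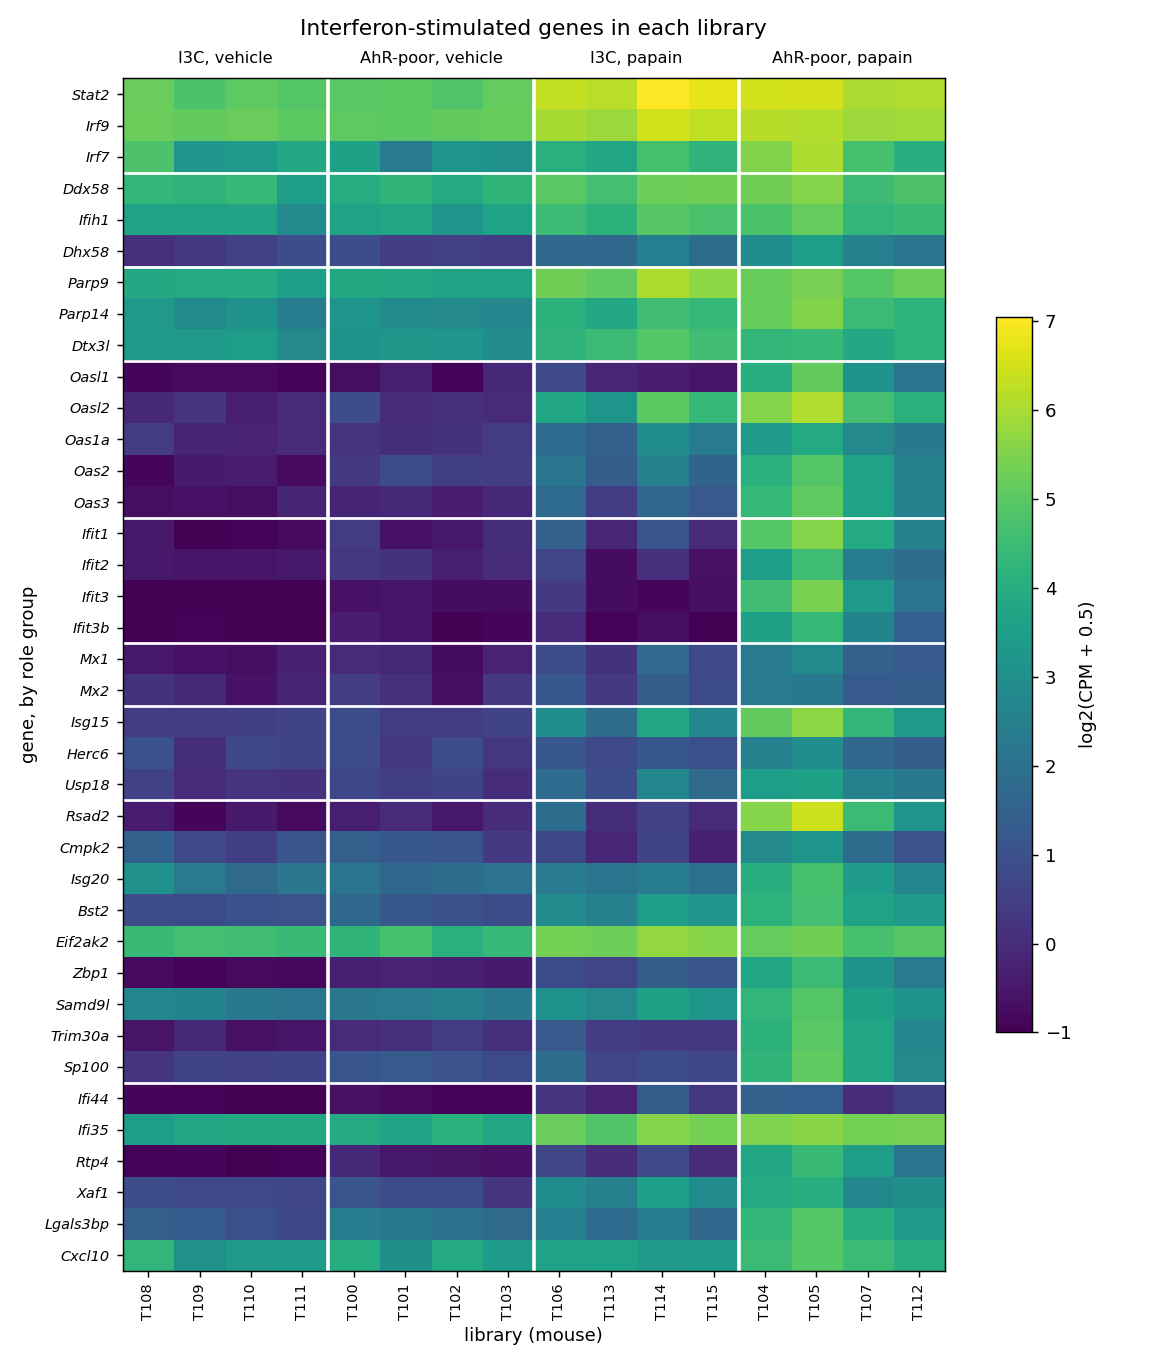
Level of each of the 38 members, as log2(CPM + 0.5), in each of the 16 libraries, with columns by group and rows by role. The AhR-poor papain libraries are brightest for the OAS, IFIT, ISG15 and antiviral rows, above all T105, while Stat2, Irf9, Parp9, Eif2ak2 and Ifi35 are about as bright in the I3C papain libraries.

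Of the transcription factors of the pathway itself, Stat2 and Irf9 reached overlapping levels after papain on both diets. Stat2, a subunit of ISGF3, stood at 36.8, 26.6, 33.1 and 29.2 CPM (I3C, vehicle), 31.1, 32.1, 28.3 and 34.7 CPM (AhR-poor, vehicle), 78.3, 74.7, 132 and 107.5 CPM (I3C, papain) and 89.7, 91.8, 65.4 and 68.2 CPM (AhR-poor, papain). The vehicle libraries of both diets overlapped, all 8 papain libraries were above them, and the highest value was in an I3C papain library, T114. Stat2 rose on the I3C diet (log2 fold change 1.64, standard error 0.17, adjusted p = 1.58e-06) and on the AhR-poor diet (log2 fold change 1.32, standard error 0.17, adjusted p = 2.09e-05), and the interaction was -0.32 (adjusted p = 0.593). Irf9, the DNA-binding subunit of ISGF3, ranged from 32.3 to 37.0 CPM and 32.3 to 35.5 CPM with vehicle (I3C and AhR-poor) to 57.2 to 91.0 CPM and 58.1 to 71.8 CPM with papain. Its change on the I3C diet was just past the fold threshold (log2 fold change 1.04, standard error 0.11, adjusted p = 7.76e-07) and on the AhR-poor diet just short of it (log2 fold change 0.95, standard error 0.11, adjusted p = 4.37e-06), so that its call on 1 diet alone is a matter of the threshold. Without T114 the I3C value was 0.91 (adjusted p = 1.21e-06) and the call was lost.

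Irf7, the factor that drives the IFN-α genes, was called on the AhR-poor diet alone. Its values were 27.3, 8.67, 9.77 and 13.9 CPM (I3C, vehicle), 11.6, 4.55, 8.43 and 7.88 CPM (AhR-poor, vehicle), 16.8, 13.8, 25.6 and 18.3 CPM (I3C, papain) and 45.5, 66.4, 25.7 and 16.04 CPM (AhR-poor, papain). On the AhR-poor diet every papain library was above every vehicle library, while on the I3C diet the groups overlapped, since vehicle library T108 was above all the I3C papain libraries. Irf7 rose on the AhR-poor diet (log2 fold change 2.25, standard error 0.48, adjusted p = 0.00239) and was not called on the I3C diet (log2 fold change 0.32, standard error 0.46, adjusted p = 0.641). With only the 8 libraries of the AhR-poor diet fitted, its value there was 2.23 (adjusted p = 0.0113) and the call was lost. The difference between these responses was 1.92 on the log2 scale (interaction, standard error 0.65, adjusted p = 0.247) and did not pass.

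The RNA sensors, which recognise viral RNA in the cytoplasm, were called in 3 of 3 cases on the AhR-poor diet and in 2 of 3 on the I3C diet. Ddx58 (RIG-I) stood at 19.7, 18.2, 20.3 and 10.9 CPM (I3C, vehicle), 15.2, 18.7, 14.5 and 18.9 CPM (AhR-poor, vehicle), 31.1, 25.3, 38.3 and 38.8 CPM (I3C, papain) and 39.2, 47.7, 22.4 and 27.2 CPM (AhR-poor, papain). Papain libraries were above vehicle libraries on both diets, and T105 and T104 were the highest of all. Its changes were 1.03 (standard error 0.24, adjusted p = 0.00335) on the AhR-poor diet and 0.95 (standard error 0.24, adjusted p = 0.00512) on the I3C diet, either side of the fold threshold. The call on the AhR-poor diet was lost without T100, T102, T104 or T105, with values of 0.82 to 0.99. Ifih1 (MDA5) had nearly equal changes, 1.17 on the AhR-poor diet and 1.18 on the I3C diet (adjusted p = 0.000923 and 0.000719), and without T105 the former was 0.98.

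Dhx58 (LGP2), which modulates the other two sensors, had the largest change of the group. It stood at 0.574, 0.739, 0.925 and 1.35 CPM (I3C, vehicle), 1.39, 0.874, 0.940 and 0.858 CPM (AhR-poor, vehicle), 2.80, 2.76, 5.11 and 3.06 CPM (I3C, papain) and 7.21, 10.8, 5.24 and 3.89 CPM (AhR-poor, papain). Each diet's papain libraries were above its vehicle libraries, and the papain groups of the diets overlapped only in T114. Dhx58 rose by 2.75 on the AhR-poor diet (standard error 0.32, adjusted p = 4.59e-06) and by 1.94 on the I3C diet (standard error 0.33, adjusted p = 0.000128).

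PARP9, an ADP-ribosyltransferase that works with the ubiquitin ligase DTX3L, and PARP14 were called higher on both diets. Parp9 stood at 14.0, 14.6, 14.99 and 10.8 CPM (I3C, vehicle), 14.2, 13.4, 12.5 and 12.3 CPM (AhR-poor, vehicle), 38.6, 33.7, 65.7 and 50.5 CPM (I3C, papain) and 35.5, 41.9, 30.2 and 37.1 CPM (AhR-poor, papain). As for Stat2, the highest papain libraries were T114 and T115 of the I3C diet. Its change was 1.79 on the I3C diet and 1.47 on the AhR-poor diet (adjusted p = 4.23e-07 and 5.99e-06), and that of Dtx3l 1.35 and 1.13 (adjusted p = 4.3e-06 and 4.31e-05). Parp9 and Dtx3l start next to each other on opposite strands and share 458 exonic bases in GENCODE M21, and since the strand setting of the counting is not given in the sources used here, reads in that stretch cannot be assigned. Parp14 stood at 9.79, 6.55, 8.19 and 4.68 CPM (I3C, vehicle), 8.50, 6.96, 6.36 and 6.09 CPM (AhR-poor, vehicle), 17.4, 13.8, 23.2 and 19.9 CPM (I3C, papain) and 35.7, 45.9, 21.9 and 17.9 CPM (AhR-poor, papain). Here T105 and T104 were above every I3C library, and T107 and T112 were within the range of the I3C papain libraries. Its log2 fold change was 2.13 on the AhR-poor diet and 1.35 on the I3C diet (adjusted p = 4.54e-05 and 0.0016).

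The OAS family is known for enzymes that make 2′-5′ oligoadenylates in response to double-stranded RNA to activate RNase L. Its genes had larger changes than the sensors, with 5 of 5 called on the AhR-poor diet (median 5.57) and 4 of 5 on the I3C diet (median 3.50). Oasl2 stood at 0.431, 0.663, 0.299 and 0.480 CPM (I3C, vehicle), 1.36, 0.503, 0.593 and 0.483 CPM (AhR-poor, vehicle), 13.5, 8.43, 32.0 and 20.3 CPM (I3C, papain) and 46.2, 68.0, 25.1 and 16.7 CPM (AhR-poor, papain). Every papain library was above every vehicle library, and the papain groups of the diets overlapped. The log2 fold changes were 5.73 (standard error 0.59, adjusted p = 7.32e-06) on the AhR-poor diet and 5.29 (standard error 0.62, adjusted p = 1.37e-05) on the I3C diet.

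Its neighbour Oasl1, known to restrain the translation of Irf7, was called on the AhR-poor diet alone. Oasl1 stood at 0.0574, 0.0765, 0.0816 and 0.0300 CPM (I3C, vehicle), 0.109, 0.291, 0.0495 and 0.429 CPM (AhR-poor, vehicle), 1.22, 0.417, 0.257 and 0.199 CPM (I3C, papain) and 16.1, 34.6, 8.01 and 3.81 CPM (AhR-poor, papain). The lowest AhR-poor papain library, T112, was above the highest I3C papain library, T106. The gene rose on the AhR-poor diet (log2 fold change 6.15, standard error 0.80, adjusted p = 4.39e-05), with 5.40 (adjusted p = 2.57e-05) without T105. On the I3C diet all vehicle libraries were at 3 counts or fewer, the papain mean was at least 6.25-fold the vehicle level (3.48-fold without T106), and it was not called (adjusted p = 0.0576). The interaction, whose size is not resolved with that group at the floor, did not pass (adjusted p = 0.499).

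Oas3, which prefers long double-stranded RNA, stood at 0.115, 0.153, 0.109 and 0.390 CPM (I3C, vehicle), 0.381, 0.424, 0.272 and 0.429 CPM (AhR-poor, vehicle), 3.00, 0.866, 2.83 and 1.89 CPM (I3C, papain) and 20.2, 33.5, 12.3 and 5.49 CPM (AhR-poor, papain). Every papain library was above every vehicle library, and every AhR-poor papain library was above every I3C papain library. The change was 5.57 on the AhR-poor diet (adjusted p = 5.49e-06) and 3.50 on the I3C diet (adjusted p = 0.000651). Oas1a had changes of 3.72 and 3.02, and Oas2 of 4.03 and 4.30, in the same order of diets, and these were called too. Of the 100-base windows of Oas1a transcripts 40.9% also occur in Oas1g, so reads of these genes may have been split between them.

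The IFIT proteins, which bind foreign RNA caps or form complexes that do, were at the floor or near it with vehicle. All 4 were called higher after papain on the AhR-poor diet (median 6.06) and 0 of 4 on the I3C diet, against 6.04% and 3.69% of all genes. The difference between these responses did not pass in any of the 4. Its estimate was 3.00 for Ifit2 (adjusted p = 0.289), and for Ifit3 and Ifit3b, at the floor in the I3C vehicle group, no estimate is given (adjusted p = 0.952 and 0.905). Ifit1 stood at 0.230, 0, 0.0272 and 0.0901 CPM (I3C, vehicle), 0.817, 0.159, 0.223 and 0.536 CPM (AhR-poor, vehicle), 2.24, 0.417, 1.66 and 0.497 CPM (I3C, papain) and 29.9, 47.2, 14.6 and 5.63 CPM (AhR-poor, papain). The AhR-poor papain libraries were all above the I3C papain libraries, and within the latter T106 and T114 were higher than T113 and T115. Ifit1 rose on the AhR-poor diet (log2 fold change 5.82, standard error 0.80, adjusted p = 7.81e-05) and did not pass on the I3C diet (log2 fold change 3.81, standard error 1.12, adjusted p = 0.0166), where its value without vehicle library T108 was 4.93 (adjusted p = 0.0209).

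Ifit3, whose promoter holds the pair of matches shown above, had no count in any I3C vehicle library. It stood at 0.164, 0.185, 0.0989 and 0.107 CPM (AhR-poor, vehicle), 0.804, 0.0962, 0.0571 and 0.124 CPM (I3C, papain) and 23.7, 42.8, 9.48 and 3.83 CPM (AhR-poor, papain). On the I3C diet T106 was above the other 3, which were within the range of the AhR-poor vehicle libraries or below it, and on the AhR-poor diet T105 was 11.2 times T112. At 7.15 (log2) its change on the AhR-poor diet (adjusted p = 0.000276) was the largest of all members. The I3C papain mean was at least 3.23-fold the vehicle level, 1.11-fold without T106, and was not called (adjusted p = 0.107).

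Ifit3b, its near copy, stood at 0, 0.0255, 0 and 0 CPM (I3C, vehicle), 0.272, 0.185, 0 and 0.0536 CPM (AhR-poor, vehicle), 0.487, 0.0321, 0.114 and 0 CPM (I3C, papain) and 11.8, 20.5, 5.76 and 2.18 CPM (AhR-poor, papain), the same order of libraries as Ifit3 within the AhR-poor papain group. Its change on that diet was 6.30 (standard error 0.90, adjusted p = 9.53e-05), and it was not called on the I3C diet (adjusted p = 0.158), where the papain and vehicle libraries overlapped and the papain mean without T106 was below the floor. Of the 100-base windows of Ifit3 and Ifit3b transcripts 31.7% and 27.4% are shared between the genes, so the split of reads between them is uncertain. Ifit2 stood at 0.230, 0.178, 0.190 and 0.240 CPM (I3C, vehicle), 0.736, 0.635, 0.321 and 0.510 CPM (AhR-poor, vehicle), 1.12, 0.0962, 0.571 and 0.149 CPM (I3C, papain) and 10.7, 22.8, 4.72 and 3.15 CPM (AhR-poor, papain). On the I3C diet its papain and vehicle libraries overlapped, with T113 and T115 below all of the vehicle libraries. It rose on the AhR-poor diet (log2 fold change 4.24, standard error 0.67, adjusted p = 0.000211), and its I3C change was 1.24 (adjusted p = 0.301), or 0.37 without T106. Without T105 the values on the AhR-poor diet were 3.50 (Ifit2), 5.68 (Ifit3b) and 6.45 (Ifit3), and without T100 that of Ifit3b was 6.96, all of them called.

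The MX proteins are known as dynamin-like GTPases that trap viral nucleocapsids. Their transcripts were called higher on both diets from a low level, and whether working protein was made was not measured. Mx1 stood at 0.230, 0.153, 0.109 and 0.330 CPM (I3C, vehicle), 0.463, 0.450, 0.0989 and 0.376 CPM (AhR-poor, vehicle), 1.39, 0.641, 2.85 and 1.22 CPM (I3C, papain) and 4.63, 6.73, 2.29 and 1.88 CPM (AhR-poor, papain). The papain groups overlapped, since T114 was above T107 and T112. Mx1 changed by 3.50 (adjusted p = 7.37e-05) and 2.89 (adjusted p = 0.000775), and Mx2 by 2.47 (adjusted p = 0.000445) and 1.84 (adjusted p = 0.00619), with the AhR-poor diet first. The I3C call of Mx2, which is annotated as a polymorphic pseudogene, was lost without T106, T109, T110, T111 or T114, with values of 1.57 to 1.90 and adjusted p of up to 0.0216.

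ISG15 is a ubiquitin-like protein that HERC6 attaches to other proteins in the mouse and USP18 removes. Isg15 stood at 0.833, 0.867, 0.898 and 1.05 CPM (I3C, vehicle), 1.33, 0.821, 0.865 and 1.07 CPM (AhR-poor, vehicle), 7.16, 3.08, 13.3 and 6.24 CPM (I3C, papain) and 34.1, 50.7, 19.6 and 9.79 CPM (AhR-poor, papain). Vehicle libraries were close to 1 CPM on both diets, all papain libraries were above them, and T114 of the I3C diet was above T112 of the AhR-poor diet. It rose on the AhR-poor diet (log2 fold change 4.80, standard error 0.54, adjusted p = 1.31e-05) and on the I3C diet (log2 fold change 3.03, standard error 0.53, adjusted p = 0.00045). Usp18 rose on both as well, by 3.12 and 2.29 (adjusted p = 3.47e-05 and 0.000611). Herc6 ranged over 2.07 to 7.23 CPM in the AhR-poor papain libraries and 1.22 to 1.83 CPM in the I3C papain libraries, was called on the AhR-poor diet (2.08, adjusted p = 0.000319) and was not called on the I3C diet (0.56, adjusted p = 0.283). Herc6 shares 1269 exonic bases with Gm45193 on the same strand, where reads cannot be assigned to a single gene.

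Among the other antiviral effectors 7 of 9 were called on the AhR-poor diet and 2 of 9, Bst2 and Zbp1, on the I3C diet. Rsad2 encodes viperin, which converts CTP into a chain terminator of viral RNA polymerases. It stood at 0.287, 0.0510, 0.245 and 0.0901 CPM (I3C, vehicle), 0.300, 0.476, 0.223 and 0.510 CPM (AhR-poor, vehicle), 3.21, 0.545, 0.942 and 0.497 CPM (I3C, papain) and 47.3, 86.6, 21.8 and 8.73 CPM (AhR-poor, papain). The AhR-poor papain libraries averaged 41.1 ± 34.3 CPM and the I3C papain libraries 1.30 ± 1.29 CPM (SD, n = 4 each), without overlap. Rsad2 rose on the AhR-poor diet (log2 fold change 6.77, standard error 0.85, adjusted p = 3.94e-05) and was not called on the I3C diet (log2 fold change 2.97, standard error 1.07, adjusted p = 0.0453), where its value without T106 was 1.96 (adjusted p = 0.198). Without T105 the value on the AhR-poor diet was 6.10 (adjusted p = 5.1e-05). Cmpk2, a nucleotide kinase encoded next to Rsad2 on chromosome 12, was not called on either diet, with changes of 1.62 (adjusted p = 0.0213) and -1.05 (adjusted p = 0.159) of opposite sign.

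Zbp1, a sensor of Z-form nucleic acids, stood at 0.0862, 0.0255, 0.0816 and 0.0600 CPM (I3C, vehicle), 0.300, 0.344, 0.297 and 0.241 CPM (AhR-poor, vehicle), 1.27, 1.09, 2.08 and 1.69 CPM (I3C, papain) and 13.4, 21.8, 8.18 and 4.35 CPM (AhR-poor, papain). The 4 groups did not overlap with each other and rose in that order. It was called on the AhR-poor diet (log2 fold change 5.33, standard error 0.44, adjusted p = 2.16e-07), and on the I3C diet it was at least 18.3-fold higher after papain (adjusted p = 1.1e-05). Bst2 (tetherin, which holds budding virions on the cell) ranged over 1.34 to 2.75 CPM with vehicle and 10.4 to 24.7 CPM with papain on the AhR-poor diet, and over 1.25 to 1.59 CPM and 5.20 to 11.02 CPM on the I3C diet. Its changes were 3.15 and 2.47 (adjusted p = 7.89e-07 and 5.89e-06).

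Trim30a, a TRIM family protein, and Sp100, a component of PML nuclear bodies, were higher in each AhR-poor papain library than in any other library. Trim30a stood at 0.172, 0.459, 0.136 and 0.180 CPM (I3C, vehicle), 0.490, 0.556, 0.816 and 0.590 CPM (AhR-poor, vehicle), 1.88, 0.866, 0.771 and 0.746 CPM (I3C, papain) and 17.5, 31.6, 13.1 and 5.98 CPM (AhR-poor, papain). For Sp100 the values were 0.689, 1.02, 0.979 and 1.02 CPM (I3C, vehicle), 1.74, 1.93, 1.61 and 1.26 CPM (AhR-poor, vehicle), 3.14, 1.09, 1.31 and 1.17 CPM (I3C, papain) and 18.9, 33.1, 13.6 and 6.39 CPM (AhR-poor, papain). In both, T106 stood above the other I3C papain libraries, and the AhR-poor papain libraries followed the order T105, T104, T107 and T112. Trim30a changed by 4.79 (adjusted p = 3.87e-06) and Sp100 by 3.46 (adjusted p = 2.69e-05) on the AhR-poor diet. Neither was called on the I3C diet, where Trim30a had 2.14 (adjusted p = 0.01) and Sp100 0.87 (adjusted p = 0.182). Of their 100-base transcript windows 4.41% (Trim30a) occur in Trim30d and 1.56% (Sp100) in Gm7582.

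Isg20, an exonuclease, rose on the AhR-poor diet by 2.13 (adjusted p = 0.000433), to 15.9, 25.6, 10.4 and 5.85 CPM, and was at 3.31 to 4.71 CPM after papain and 2.96 to 7.90 CPM with vehicle on the I3C diet (log2 fold change -0.24, adjusted p = 0.674). Samd9l, a restrictor of translation, changed by 1.92 on the AhR-poor diet and was called, and by 0.83 on the I3C diet (adjusted p = 0.000212 and 0.0516). Eif2ak2 encodes PKR, the kinase that stops translation on sensing double-stranded RNA. It stood at 21.6, 24.4, 23.6 and 21.4 CPM (I3C, vehicle), 18.6, 25.6, 16.7 and 20.4 CPM (AhR-poor, vehicle), 41.2, 38.2, 52.9 and 47.1 CPM (I3C, papain) and 35.3, 38.9, 25.9 and 30.8 CPM (AhR-poor, papain). Papain libraries were above vehicle libraries on each diet, and the 3 highest were of the I3C diet. Its changes of 0.98 (I3C) and 0.69 (AhR-poor) had adjusted p of 1.5e-05 and 0.000638 and were under the fold threshold.

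Of the other induced genes 5 of 6 were called on each diet, all but Cxcl10. Ifi35, an interferon-induced protein with a leucine zipper, stood at 10.9, 12.7, 14.3 and 14.3 CPM (I3C, vehicle), 15.04, 12.6, 17.3 and 12.7 CPM (AhR-poor, vehicle), 36.2, 28.5, 47.4 and 40.5 CPM (I3C, papain) and 44.8, 49.2, 41.2 and 41.6 CPM (AhR-poor, papain). The papain groups overlapped and had 3.06 and 2.93 times the mean of the vehicle groups on the AhR-poor and I3C diets (log2 fold change 1.62 and 1.55, adjusted p = 1.45e-07 and 1.09e-07). Rtp4, a chaperone of membrane receptors, stood at 0.0287, 0.0510, 0 and 0.0300 CPM (I3C, vehicle), 0.436, 0.212, 0.173 and 0.161 CPM (AhR-poor, vehicle), 1.15, 0.513, 1.20 and 0.522 CPM (I3C, papain) and 13.6, 21.3, 10.7 and 3.78 CPM (AhR-poor, papain). The 4 groups did not overlap, as for Zbp1. It rose on the AhR-poor diet (log2 fold change 5.64, standard error 0.53, adjusted p = 1.12e-06) and was at least 10.1-fold higher on the I3C diet (adjusted p = 0.000268), and it shares 296 exonic bases with Gm45338 on the same strand.

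Lgals3bp, a secreted glycoprotein that binds galectins, stood at 2.18, 2.01, 1.47 and 1.17 CPM (I3C, vehicle), 4.69, 4.13, 3.31 and 2.92 CPM (AhR-poor, vehicle), 5.07, 3.05, 4.88 and 2.81 CPM (I3C, papain) and 19.7, 29.8, 16.3 and 10.2 CPM (AhR-poor, papain). With either injection the AhR-poor libraries were above the I3C libraries. The response to papain was 2.34 on the AhR-poor diet (adjusted p = 1.68e-05) and 1.21 on the I3C diet (adjusted p = 0.00628), the latter lost without T106, T109, T110, T111 or T114, with values of 1.06 to 1.30. Xaf1, an antagonist of the apoptosis inhibitor XIAP, changed by 3.22 on the AhR-poor diet (adjusted p = 2.1e-06) and by 2.61 on the I3C diet (adjusted p = 9.82e-06). Ifi44 had the fewest counts of all members, 406 in total, with a change of 4.44 on the AhR-poor diet (adjusted p = 9.36e-05) and a rise of at least 11.6-fold on the I3C diet (adjusted p = 0.000107). That bound was 7.10-fold without T114, the I3C papain libraries being at 0.682, 0.353, 2.08 and 0.746 CPM. Cxcl10, the chemokine that attracts cells with CXCR3, was at 7.78 to 19.2 and 7.57 to 15.4 CPM with vehicle and at 9.79 to 12.3 and 15.6 to 29.6 CPM with papain on the I3C and AhR-poor diets. Its changes were 0.89 on the AhR-poor diet (adjusted p = 0.0203) and -0.08 on the I3C diet (adjusted p = 0.853).

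**Figure D3:**
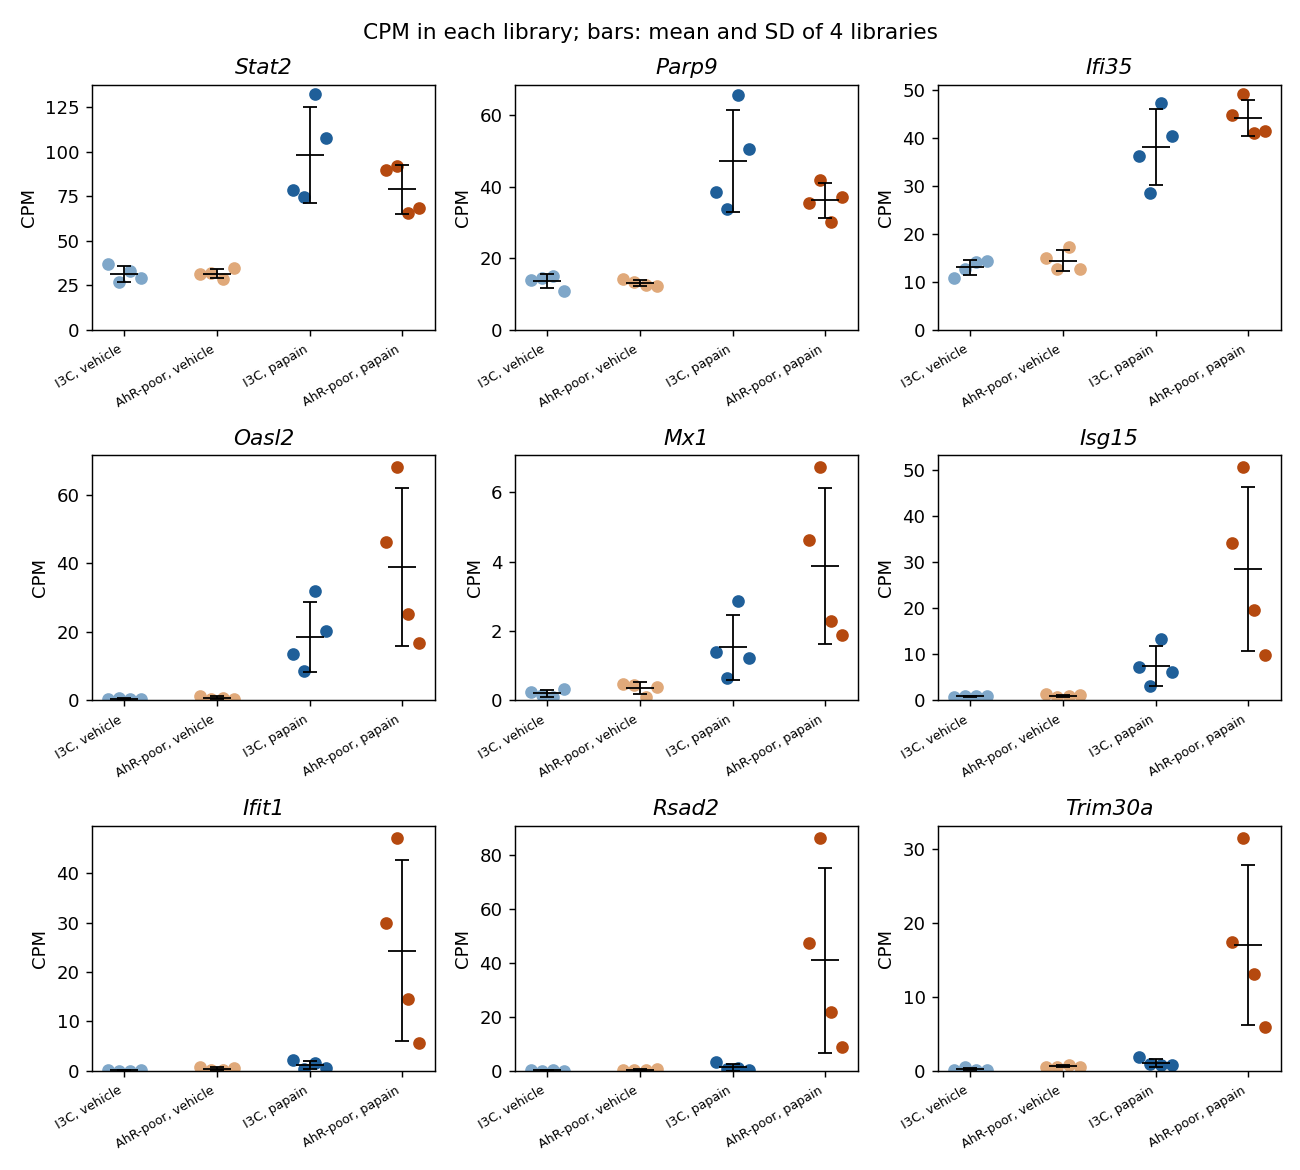
CPM of 9 members in each library (points), by group, with the mean and SD of the 4 libraries of a group (bars). Stat2, Parp9 and Ifi35 reach similar levels after papain on both diets, Oasl2, Mx1 and Isg15 rise on both with overlapping papain groups, and Ifit1, Rsad2 and Trim30a are high in the AhR-poor papain libraries, with T105 the highest in all 6 of the latter.

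The next question was whether the diets differed before any papain. With vehicle, 0 of the 38 members were called between the diets by edgeR, against 1.59% of all genes called higher on the AhR-poor diet, and 5 members (13.2%) had an unadjusted p below 0.05, as did 12.5% of all genes. The median log2 fold change was 0.36 (0.27 with bounds), and 8 members had all 4 AhR-poor libraries above all 4 I3C libraries, 21.1% of the members against 6.45% of all genes. The lowest adjusted p belonged to Oas2 and Lgals3bp. Oas2 stood at 0.0574, 0.255, 0.272 and 0.0901 CPM (I3C) and 0.790, 1.30, 0.915 and 0.885 CPM (AhR-poor), without overlap (log2 fold change 2.47, standard error 0.64, adjusted p = 0.051). Lgals3bp had 1.13 (standard error 0.31, adjusted p = 0.0691). The Wald test of DESeq2 called 3 members, Oas2 (2.50, adjusted p = 0.000545), Lgals3bp (1.13, adjusted p = 0.00501) and Rtp4 (3.13, adjusted p = 0.00886). Oas2 was also called by edgeR without T105 (2.46, adjusted p = 0.00974), without T112 (2.47, adjusted p = 0.00812) or with the 8 vehicle libraries fitted alone (2.47, adjusted p = 0.00242). In the same vehicle libraries all 10 fibroblast, all 8 endothelial and all 5 erythrocyte markers and 5 of 10 monocyte and macrophage markers were called higher on the AhR-poor diet.

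After papain the diets differed in many members, and those called all in the same direction. On the AhR-poor diet 17 of the 38 were called higher than on the I3C diet and 0 lower, against 7.15% of all genes called higher, and the median log2 fold change was 1.19 (0.01 over all genes). In 17 members all 4 AhR-poor papain libraries were above all 4 I3C papain libraries, 44.7% against 12.5% of all genes. These were 16 of the 17 called, all but Isg15, and Cxcl10. The IFIT family had 4 of 4 called, from 4.32 for Ifit1 to 6.12 for Ifit3. Ifit3 had a standard error of 0.92 and an adjusted p of 0.0009, Ifit3b 5.90 (standard error 0.87, adjusted p = 0.000269), and Ifit2 4.38 (standard error 0.68, adjusted p = 0.00038). Rsad2 differed by 4.95 (standard error 0.74, adjusted p = 0.000349) and Oasl1 by 4.87 (standard error 0.72, adjusted p = 0.000281). These sizes rest on T106 and T105. Without T106 they were 7.69 (Ifit3), 7.65 (Ifit3b), 5.25 (Ifit2), 5.96 (Rsad2) and 5.77 (Oasl1). Without T105 they were 5.42, 5.27, 3.64, 4.28 and 4.11 in that order, and each remained called.

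The smallest adjusted p values were those of Rtp4 (3.86, adjusted p = 2.38e-05), Trim30a (3.99, adjusted p = 2.6e-05), Zbp1 (2.96, adjusted p = 2.96e-05), Lgals3bp (2.27, adjusted p = 4.94e-05) and Sp100 (3.41, adjusted p = 6.75e-05). Oas3 (3.05), Cmpk2 (2.72), Oas2 (2.21), Isg15 (1.94), Isg20 (1.82) and Herc6 (1.47) complete the list. The call of Isg15 was lost in 13 of the 16 fits that left out 1 library, all but those without T107, T112 or T114, with adjusted p of up to 0.0295. That of Herc6 was lost without T104, T105, T106, T113, T114 or T115 (1.09 to 1.55) and that of Isg20 without T113 or T115 (1.73 and 1.80). With the 8 papain libraries fitted alone, 8 of the 17 kept the call (Oasl1, Ifit3, Ifit3b, Zbp1, Trim30a, Sp100, Rtp4 and Lgals3bp) and Cxcl10 was called in addition (1.01, adjusted p = 0.00303). The other 9 lost it with adjusted p of 0.0114 (Ifit1) to 0.0601 (Isg15), at log2 fold changes close to those above, such as 4.32 for Ifit1 and 4.95 for Rsad2. None of the transcription factors, RNA sensors, PARP or MX genes was called, and Stat2, Irf9, Parp9, Dtx3l and Eif2ak2 had values below 0, from -0.45 (Eif2ak2, adjusted p = 0.0222) to -0.16 (Irf9, adjusted p = 0.366).

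In the same papain libraries markers of other cells were also called higher on the AhR-poor diet, as were 7.15% of all genes. All 10 fibroblast, all 8 endothelial, all 5 erythrocyte, all 10 monocyte and macrophage and 6 of 10 neutrophil markers were called. Of the other lists 1 of 6 Langerhans cell, 1 of 7 T cell and 1 of 5 tested plasmacytoid dendritic cell markers were called, and 0 of 8 keratinocyte markers. The part of these cells in the difference between the diets was not tested. Promoters with an ISRE match were found in 7 of the 14 members with a window among the 17 called, and in 7 of the 15 with a window among the other members.

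Whether the response to papain itself depends on the diet was asked with the interaction of diet and papain. In edgeR 0 members passed, against 0.0181% of all genes (4 genes), and 12 members (31.6%) had an unadjusted p below 0.05, against 13.5% of all genes. For Oasl1, Ifit3, Ifit3b, Zbp1, Ifi44 and Rtp4, at the floor in the I3C vehicle group, the fitted interaction depends on the prior count. Over the other 32 members the median was 0.79 (0.03 over all genes), and 25 (78.1%) had a larger fitted response on the AhR-poor diet, as did 53.1% of all genes. The lowest adjusted p belonged to Isg20 (2.37, standard error 0.53, adjusted p = 0.0718) and Sp100 (2.60, standard error 0.64, adjusted p = 0.101). Without T112 both passed, with Isg20 at 2.63 (adjusted p = 0.00419) and Sp100 at 2.88 (adjusted p = 0.00783). The Wald test of DESeq2 called 3, Isg20 (2.38, adjusted p = 0.000281), Sp100 (2.62, adjusted p = 0.000651) and Cmpk2 (2.69, adjusted p = 0.00695). For Rsad2 the interaction was 3.80 with a standard error of 1.70 (adjusted p = 0.355), and for Ifit1 2.01 with 1.81 (adjusted p = 0.671), and both are near the floor with vehicle. By contrast the estimates for Stat2 (-0.32, standard error 0.24), Irf9 (-0.09, standard error 0.16), Ifih1 (-0.02, standard error 0.32) and Ifi35 (0.07, standard error 0.19) were small with narrow errors.

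**Figure D4:**
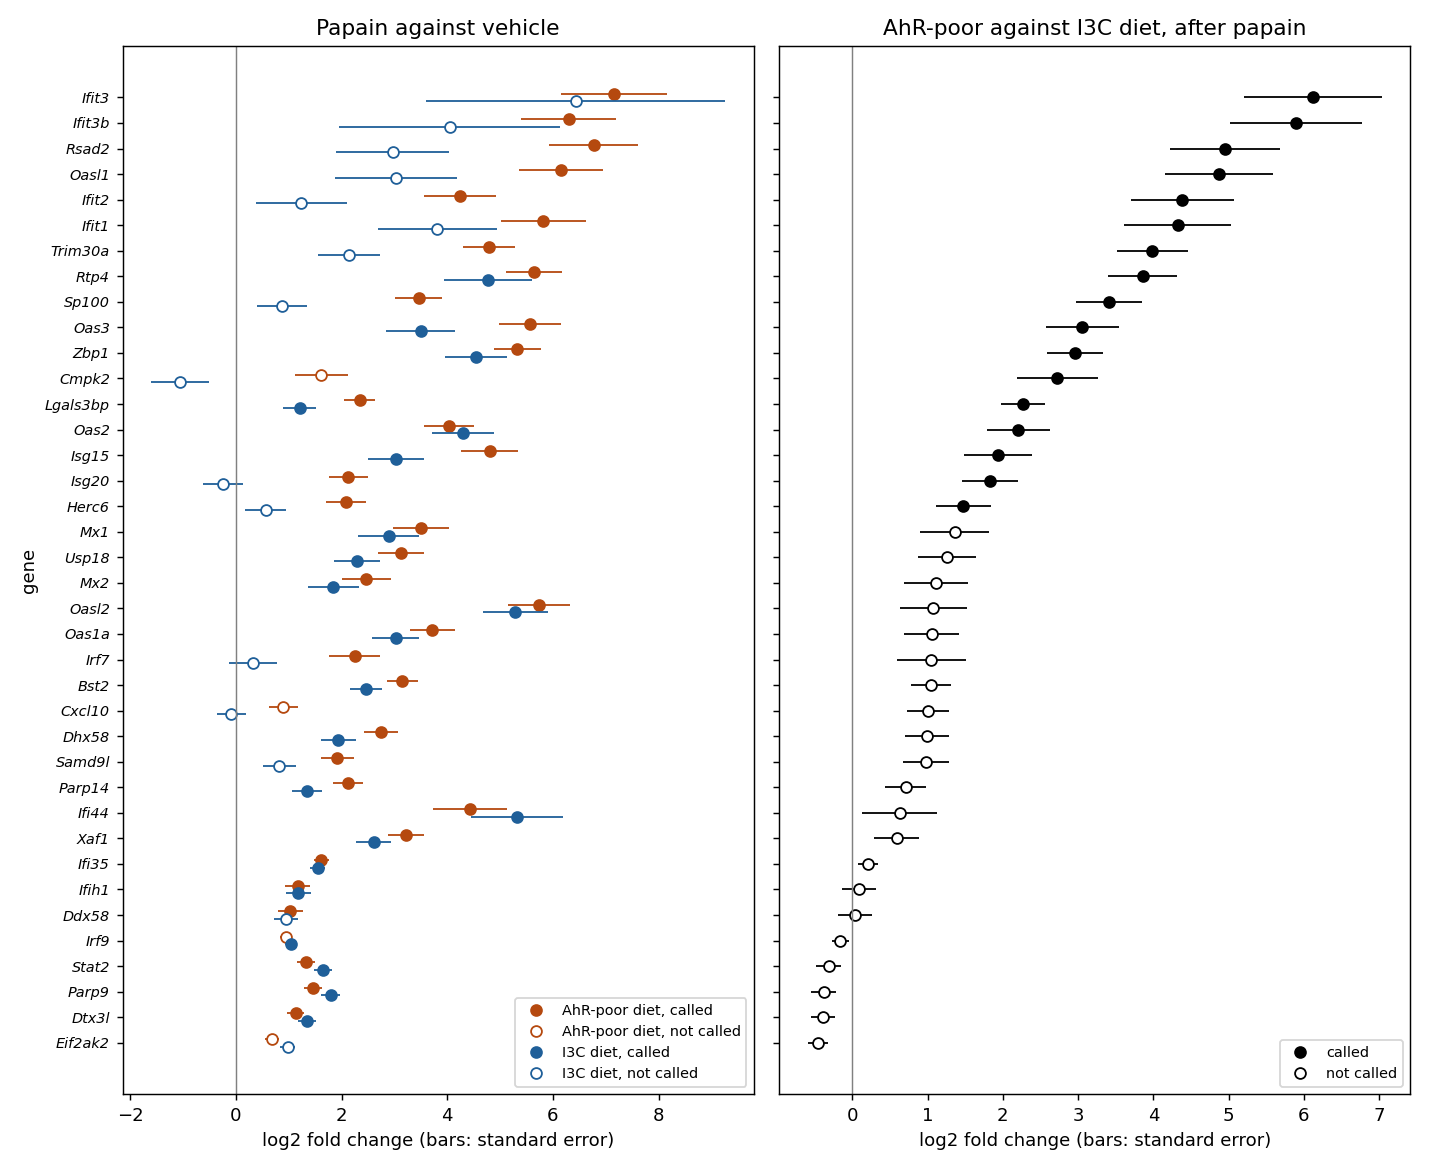
Log2 fold change of each member with its standard error, for papain against vehicle on each diet (left) and for the AhR-poor against the I3C diet after papain (right), sorted by the latter, with filled points for members that were called. The 17 called differences between the diets run from Ifit3 (6.12) to Herc6 (1.47), and fitted changes of genes at the floor with vehicle, such as Ifit3 on the I3C diet, depend on the prior count.

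The libraries within a papain group were far apart for most of these genes, a limit of the tests above that use these groups. The SD of log2(CPM + 0.5) between the 4 libraries had a median over the members of 0.74 in the AhR-poor papain group, against 0.13 over all genes. In the I3C papain group it was 0.43 against 0.12, and with vehicle 0.24 against 0.15 (I3C) and 0.23 against 0.14 (AhR-poor). In the AhR-poor papain group T105 was the highest library for 35 of the 38 members (92.1%), whereas it was the highest for 29.8% of all genes. T112 was the lowest for 27 members, and the full order T105, T104, T107 and T112 held for 27 members (71.1%) and for 5.81% of all genes. The ratio of the highest to the lowest library ran from 2.93 to 11.2 in the 17 members called between the diets after papain, and from 1.19 to 4.36 in the other 21. The mean log2(CPM + 0.5) over the members was 4.25, 4.73, 3.56 and 3.08 in T104, T105, T107 and T112.

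In the I3C papain group T114 was highest for 25 members (65.8%, against 25.5% of all genes), among them Stat2, Irf9, Parp9, Oasl2, Mx1 and Isg15, and T106 for 11 (28.9%, the share over all genes), namely Oasl1, Oas3, Ifit1, Ifit2, Ifit3, Ifit3b, Rsad2, Cmpk2, Trim30a, Sp100 and Lgals3bp. These 11 members are all among the 17 called between the diets after papain, a comparison that uses the same libraries. The mean over the members was 2.57, 1.97, 2.76 and 2.29 in T106, T113, T114 and T115, below every AhR-poor papain library and above the vehicle libraries, which lay between 1.10 and 1.54.

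The markers of other cells followed some of the same libraries. In the AhR-poor papain group the neutrophil markers summed to 464, 782, 485 and 112.7 CPM in T104, T105, T107 and T112, and the monocyte and macrophage markers to 148, 294, 177 and 90.3 CPM. The erythrocyte markers summed to 441, 1254, 551 and 267 CPM and the fibroblast markers to 525, 712, 663 and 278 CPM, again with T105 highest and T112 lowest. The endothelial markers, at 57.1, 65.1, 26.1 and 38.2 CPM, were lowest in T107, and the Langerhans cell markers, at 978, 845, 912 and 790.1 CPM, were highest in T104. The T cell markers summed to 37.1, 59.8, 48.3 and 20.8 CPM. In the I3C papain group T106 had the highest sums of Langerhans cell (670 CPM, against 327 to 457 in the other 3), T cell (31.2 against 9.80 to 12.9), monocyte and macrophage (37.0 against 11.7 to 24.7), fibroblast (12.1 against 2.40 to 8.02), endothelial (2.34 against 0.742 to 1.60) and erythrocyte markers (17.2 against 0.400 to 3.56). The sum of the neutrophil markers was highest in T113 (93.2 CPM), where S100a8, S100a9 and Mmp9 peaked, while 5 of the 10 (Csf3r, Retnlg, Clec4d, Trem1 and Fpr1) were highest in T106, Cxcr2 was highest in T114 and Ly6g was at 0 in all 4. Of the plasmacytoid dendritic cell list, whose cells make much IFN-α, the defining marker Siglech was low. It was at 0.12, 0.30, 0.17 and 0.16 CPM in the AhR-poor papain libraries, against at most 0.08 CPM in every other library. Runx2 was also higher there, at 4.7, 5.2, 4.6 and 2.9 CPM against 1.0 to 2.6 CPM. Ccr9 and Tcf4 were at 0.84 to 1.90 and 22.25 to 27.0 CPM there, against 1.44 to 2.98 and 18.6 to 32.75 CPM. Klk1 was at most 0.03 CPM. The sum of that list, 1520 to 2532 CPM over the 16 libraries, is nearly all Ly6d, which ran from 1491 to 2502 CPM. This sum was lowest in T104 and T105, while Siglech and Runx2 were highest in T105. Of the 5 markers of the list that were tested, 1 was called higher after papain on the AhR-poor diet (6.04% of all genes). Between the diets after papain 1 was called higher on the AhR-poor diet (7.15% of all genes). The part of these cells in the levels of the members was not tested.

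**Figure D5:**
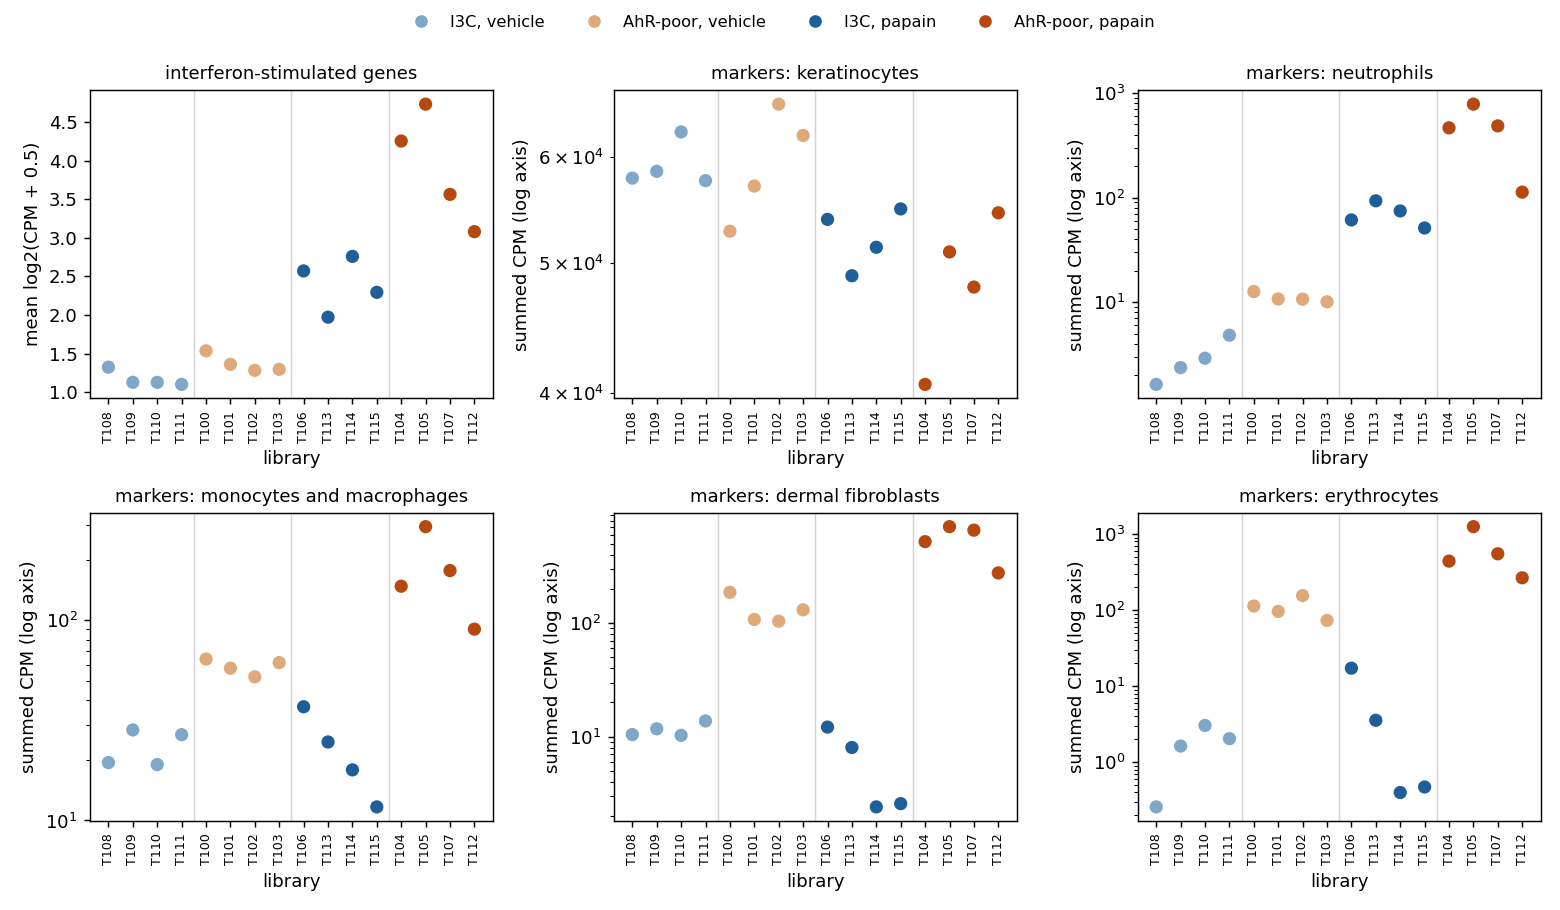
Mean log2(CPM + 0.5) of the 38 members and summed CPM of the markers of 5 cell types (log axis) in each of the 16 libraries, coloured by group. T105 is the highest and T112 the lowest AhR-poor papain library for the members and the neutrophil, monocyte and macrophage, fibroblast and erythrocyte markers. The sum of the keratinocyte markers varies by less than a factor of 2. Some single keratinocyte markers vary more, such as Flg, at 2.426 CPM in T114 and 64.61 CPM in T103.

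Compared with each other per length of exon, the members changed places with papain. With vehicle the highest levels per kilobase were those of Ifi35 (7.55 ± 0.939 CPM per kb on the I3C diet and 8.35 ± 1.29 on the AhR-poor diet, SD, n = 4) and Irf9 (6.52 ± 0.414 and 6.24 ± 0.261). After papain on the I3C diet Ifi35 (22.1 ± 4.58) and Stat2 (16.6 ± 4.55) were highest, with ranges that overlapped. On the AhR-poor diet Isg15 came first (37.7 ± 23.6), with a spread that covers the means of Ifi35 (25.6 ± 2.15) and Bst2 (18.1 ± 7.12). Stat2 (13.3 ± 2.35) followed. Ifit3, with no count in the I3C vehicle libraries, where its order among the 6 members at the floor is not resolved, took place 6 with papain on the AhR-poor diet (11.4 ± 9.96), where its spread overlapped those of its neighbours Irf9 (12.03 ± 1.21) and Irf7 (10.2 ± 5.92). Herc6 (0.467 ± 0.257) and Ifi44 (0.238 ± 0.144) were the lowest there.

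Most ligands of the pathway were at or near the floor, the exceptions being Ifnk on the AhR-poor diet and Ifnb1 in T105. Of 20 genes of type I and III interferons 13 had no count in any library, all of them Ifna genes, which allows up to 0.0569 to 0.130 CPM a library. Ifnb1 had 35 counts in T105 (0.66 CPM) and 3 counts in T104 (0.07 CPM) and none in the other 14 libraries. The members were highest in T105 and T104, but 3 counts are at the floor, so only T105 held Ifnb1 above it. Ifnb1 was not called (AhR-poor diet, adjusted p = 0.12). Ifnk, the interferon of keratinocytes, was at 0.0574, 0, 0.0272 and 0.150 CPM (I3C, vehicle), 0.599, 0.397, 0.0989 and 0.295 CPM (AhR-poor, vehicle), 0.171, 0.0321, 0.114 and 0.0995 CPM (I3C, papain) and 0.566, 0.474, 0.693 and 0.489 CPM (AhR-poor, papain). After papain the diets did not overlap and Ifnk was higher on the AhR-poor diet (log2 fold change 2.32, standard error 0.55, adjusted p = 0.00573), while neither papain response was called. With vehicle its difference between the diets was 2.55 (adjusted p = 0.0327). Ifnl2, a type III interferon, had 0 to 3 counts a library, and Ifng, the type II interferon, 0 to 9.

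The receptors were expressed in all libraries. Ifnar1 was at 29.4 to 42.9, 32.1 to 36.6, 38.9 to 41.0 and 35.8 to 48.7 CPM and Ifnar2 at 8.46 to 12.4, 8.33 to 9.45, 13.2 to 15.5 and 13.2 to 19.9 CPM in the groups I3C vehicle, AhR-poor vehicle, I3C papain and AhR-poor papain. Neither was called in any comparison, the change of Ifnar2 being 0.91 on the AhR-poor diet (adjusted p = 2.86e-05) and 0.55 on the I3C diet (adjusted p = 0.00255). Ifnlr1, of the type III receptor, was at 25.3 to 29.97 CPM with papain on the AhR-poor diet and 33.4 to 41.9 CPM on the I3C diet, a difference of -0.44 (adjusted p = 0.00128) under the fold threshold. Il10rb, which pairs with it, rose on the AhR-poor diet (1.44, adjusted p = 1.9e-06) and was higher there than on the I3C diet after papain (1.07, adjusted p = 8.33e-05). Ifngr1, of the type II receptor, rose on both diets (1.46 and 1.58, adjusted p = 3.03e-09 and 6.66e-10), and Ifngr2 was not called.

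None of the 3 kinases of the list, Jak1, Jak2 and Tyk2, was called in any of the 5 comparisons. Of 11 genes that induce the ligands, Tmem173 (STING) rose on both diets (3.52 and 3.73, adjusted p = 1.27e-05 and 5.26e-06). Cgas, the sensor that feeds it, was called on the I3C diet (1.11, adjusted p = 2.78e-05) and not on the AhR-poor diet (0.92, adjusted p = 0.000244). These values lie either side of the fold threshold, and the interaction was -0.19 (adjusted p = 0.769). Tlr7 and Tlr9, endosomal receptors found mainly in leukocytes, were low and higher on the AhR-poor diet after papain, with Tlr7 at 0.837, 2.92, 0.952 and 0.489 CPM against 3 counts or fewer in every I3C papain library (at least 15.8-fold, or 9.22-fold without T105) and Tlr9 at 0.665, 2.07, 0.606 and 0.326 CPM against 0.0285 to 0.292 CPM.

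Of 7 further members of the IRF family Irf1 fell after papain on the I3C diet (-1.90, adjusted p = 0.000508) and had a value of -0.87 on the AhR-poor diet (adjusted p = 0.0563). Irf8, a factor of myeloid cells, was higher on the AhR-poor diet after papain (1.55, adjusted p = 0.000284). None of 7 negative regulators, such as Socs1 and Ptpn2, was called in any of the 5 comparisons. Among 15 genes typical of IFN-γ, 10 were called higher after papain on the AhR-poor diet and 6 on the I3C diet, against 6.04% and 3.69% of all genes. With vehicle 1 of the 15, Ciita, the activator of MHC class II genes, was higher on the AhR-poor diet (1.34, adjusted p = 0.00471), against 1.59% of all genes. After papain 4 (Gbp3, Gbp5, Tgtp2 and Nos2) were higher on the AhR-poor diet, against 7.15% of all genes. Of these, Nos2 was at 3 counts or fewer in every I3C papain library (at least 3.83-fold). Tgtp2 was near the floor, with means of 0.357 CPM (AhR-poor, papain) and 0.0377 CPM (I3C, papain). Gbp2, a guanylate-binding protein, had a change of 3.81 on the AhR-poor diet and 2.66 on the I3C diet (adjusted p = 8.2e-05 and 0.00128).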

How the data were processed

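Epidermal RNA of 16 mice was sequenced after poly(A) selection (TruSeq Stranded mRNA). The authors deposited raw counts per Ensembl gene. The submitters' processing notes name FastQC, STAR, DESeq2 and the build mm10. The counting tool, annotation and strand setting are not given in the sources used here. The member symbols were matched through GENCODE M21, which held 50376 of the 50600 identifiers. Nothing says more than that the libraries of a group came from separate mice of a shared cage, and no label names a sequencing batch.

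The counts as deposited were fitted with edgeR 4.0.16 (R 4.3.3, limma 3.58.1): TMM factors, a robust quasi-likelihood fit with 1 mean for each of the 4 groups, at least 10 counts in total, Benjamini-Hochberg adjustment over all 22155 genes tested, and the study's thresholds (0.01 on the adjusted p and 1 on the log2 fold change, in either direction). The fit was also run on simulated data, where the changed genes had a mean above 1 CPM and each gene had the same dispersion in all groups. That setting does not cover members at the floor or with a wider spread in the papain groups. For a gene at or under 3 counts in all libraries of a group, a bound against a floor of 3 counts per library replaces the fold change. Single-gene levels are TMM-scaled CPM, and log2 levels used a pseudocount of 0.5 CPM. Levels per kb used the exon union of GENCODE M21. Promoter windows were those of RefSeq (GRCm38.p6), and copies were sought as shared 100-base transcript windows. DESeq2 1.42.0 served as an alternative, beside RLE factors, library size only, 3 other filters, the 8 libraries of a comparison alone, 2 other thresholds, leaving out each library and pseudocounts of 0.1 and 1.

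The members, the marker lists and the pathway lists were chosen with earlier results of these data known. A gene of the pathway lists is not reported here. Values for every library were given, in each role, for the member with the highest mean CPM and the member with the largest papain response on the AhR-poor diet at a mean of at least 1 CPM, and for up to 12 members called between the diets, by p. Oas2 was added as the member of lowest p with vehicle.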

Additional observations from a re-analysis of the deposited data

Results flagged for a closer look

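In 146 sets of 4 libraries (a member in a group, leaving out sets at or under 3 counts in all 4 libraries), 11 held a library farther from the other 3 than the 95% critical value of Dixon's ratio for 4 values allows, 7.53% of them. Chance gives such a library in about 1 in 20 independent sets of normal values. The sets here share libraries and hold members that vary together, so that rate is not a test of the share found. Of the 11 found, 4 were T106 among the I3C papain libraries. Ifit3 was at 0.804 CPM there, against at most 0.124 CPM in the other 3. Rsad2 was at 3.21 CPM, against 0.497 to 0.942 CPM. Trim30a was at 1.88 CPM, against 0.746 to 0.866 CPM, and Sp100 at 3.14 CPM, against 1.09 to 1.31 CPM. T106 is also the I3C papain library with the highest sums of Langerhans cell, T cell, monocyte and macrophage, fibroblast, endothelial and erythrocyte markers, whose part was not tested.

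In the same group Dhx58 was highest in T114, at 5.11 CPM against 2.76 to 3.06 CPM. With vehicle on the AhR-poor diet T100 was highest for Dhx58 (1.39 CPM against 0.858 to 0.940 CPM) and Oasl2 (1.36 CPM against 0.483 to 0.593 CPM). With vehicle on the I3C diet Ifih1 was low in T111 (6.51 CPM against 11.8 to 12.4 CPM) and Oas3 high there (0.390 CPM against 0.109 to 0.153 CPM). Trim30a was high in T109 (0.459 CPM against 0.136 to 0.180 CPM) and Sp100 low in T108 (0.689 CPM against 0.979 to 1.02 CPM).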

How the results depend on the processing

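Of 73 called values of members over the 5 comparisons 65 kept their call without each library in turn, and no value changed sign in 1793 recomputed values, of which 50 lost the call. With 10 counts required in every library 24 members were tested, and 20 were called after papain on the AhR-poor diet and 6 between the diets after papain, since the members near 0 with vehicle were no longer tested. DESeq2 called 3 members between the diets with vehicle and 3 in the interaction. With only the 8 libraries compared, 1 member (Oas2) was called between the diets with vehicle and 9 after papain (8 of the 17 and Cxcl10), and the interaction could not be fitted. The cause was not tested. Leaving out 1 library at a time gave 32 to 35 calls after papain on the AhR-poor diet, 19 to 24 on the I3C diet, 0 to 1 between the diets with vehicle, 14 to 21 between the diets after papain and 0 to 2 in the interaction. The call with vehicle came without T105 or without T112, and both calls in the interaction came without T112. After papain on the I3C diet 15 members were called with 10 counts in every library, 27 by DESeq2 and 21 to 25 under the other settings. The mean log2 level of the members with vehicle moved with the pseudocount by construction, to 0.41 (I3C) and 0.84 (AhR-poor) at 0.1 CPM and to 1.64 and 1.76 at 1 CPM. No paired analysis was possible because each replicate code belongs to a single group. Depth limits Ifit3, Ifit3b, Oasl1, Zbp1, Rtp4 and Ifi44, which had 3 counts or fewer in every I3C vehicle library.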
